A study of Mus musculus with 28 samples.

Results

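Monocyte recruitment and identity genes are described here across dendritic cells sorted from mouse kidneys and kidney grafts. The set names 7 genes: Ccr2, Ly6c2, Plac8, Vcan, Chil3, F13a1 and Fn1. A gene was taken up where an array probeset, a group of probes summarised to 1 value, listed its symbol and no other, and the brightest such probeset was used. That gave 6 of the 7 genes, out of 19272 gene symbols in the table. The probeset of Ly6c2 also lists Ly6c1, so no value is given for Ly6c2. Of the 6 genes, 4 (Ccr2, Plac8, F13a1 and Fn1) lay above the 40th percentile of at least 3 arrays and were tested. Vcan and Chil3 lay below that percentile on all 28 arrays and are given by level.

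The study compared renal dendritic cells of healthy kidneys, called homeostatic, with donor and host dendritic cells of kidney allografts 3 days after transplantation, each from cortex and from medulla. Homeostatic cells came from 4 C57BL/6 mice and 4 BALB/c mice. Graft cells came from 3 grafts, in which donor cells (labelled BALB/c) were sorted as CD45.2 positive and host cells (labelled C57BL/6) as CD45.1 positive. All cells were sorted by CD45, CD11c and MHC class II, and their RNA was amplified before hybridisation. That makes 8 groups: cortex and medulla of C57BL/6, of BALB/c, of donor and of host cells, with 4 arrays in each homeostatic group and 3 in each graft group. No healthy CD45.1 mouse is among the groups, so host cells are set against C57BL/6 cells not labelled CD45.1. Values are log2 array signal, so a level of 1 probeset is not comparable with that of another, and each difference is given on that log2 scale with its SE, both estimated by limma. It passed when its adjusted p over all 14346 genes tested was under 0.05.

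Classical monocytes leave the bone marrow and enter inflamed tissue through the chemokine receptor CCR2, which binds CCL2 and its relatives, and in mice they are marked by high Ly6C. Once in a tissue they can become macrophages or dendritic-like cells and change the genes that mark them. CCR2 is also carried by conventional dendritic cells of the type 2 branch, so its transcript in a kidney dendritic cell sort is not a monocyte marker alone. Plac8, Vcan, Chil3, F13a1 and Fn1 are used as markers of monocytes or of their early macrophage descendants: a small cysteine-rich protein, a matrix proteoglycan, a secreted chitinase-like protein, the catalytic chain of coagulation factor XIII and fibronectin.

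The sort markers and the marker lists differed between groups, which touches every result below. Itgax, which encodes CD11c, had 11.32 ± 0.31 (SD, n = 4) in C57BL/6 cortex, 8.43 ± 0.97 (SD, n = 4) in BALB/c medulla, 7.38 ± 0.19 (SD, n = 3) in donor medulla and 7.66 ± 0.45 (SD, n = 3) in host medulla. The arrays' thresholds lay between 7.26 and 7.62, so Itgax was close to its threshold in both graft medulla groups. H2-Ab1, an MHC class II chain, had 13.22 ± 0.10 (SD, n = 4) in C57BL/6 cortex and 9.54 ± 1.19 (SD, n = 3) in host medulla. The mean of 21 leukocyte-wide genes lay between 11.21 and 11.54 on the C57BL/6 arrays, 10.74 and 11.43 on the BALB/c arrays, 9.02 and 10.78 on donor arrays and 8.06 and 11.38 on host arrays. The mean of 13 epithelium-wide genes lay between 7.69 and 8.10 in C57BL/6, 7.65 and 8.81 in BALB/c, 8.47 and 10.14 in donor and 8.52 and 10.36 in host arrays. In bulk RNA of sorted cells, fewer cells of a type and less of an RNA per cell cannot be told apart.

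Ccr2 and Plac8 were the members that varied most, F13a1 was raised in a small number of arrays, and Fn1, Vcan and Chil3 stayed near or below the threshold. The SD over the 28 arrays was 1.74 for Ccr2 and 1.80 for Plac8, larger than that of 98.9% and 99.1% of genes. It was 0.797 for F13a1, 0.462 for Chil3, 0.260 for Vcan and 0.224 for Fn1, where the median gene had 0.345. Ccr2 lay above the threshold on 27 arrays, Plac8 on 26, Fn1 on 16 and F13a1 on 9.

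**Figure D1:**
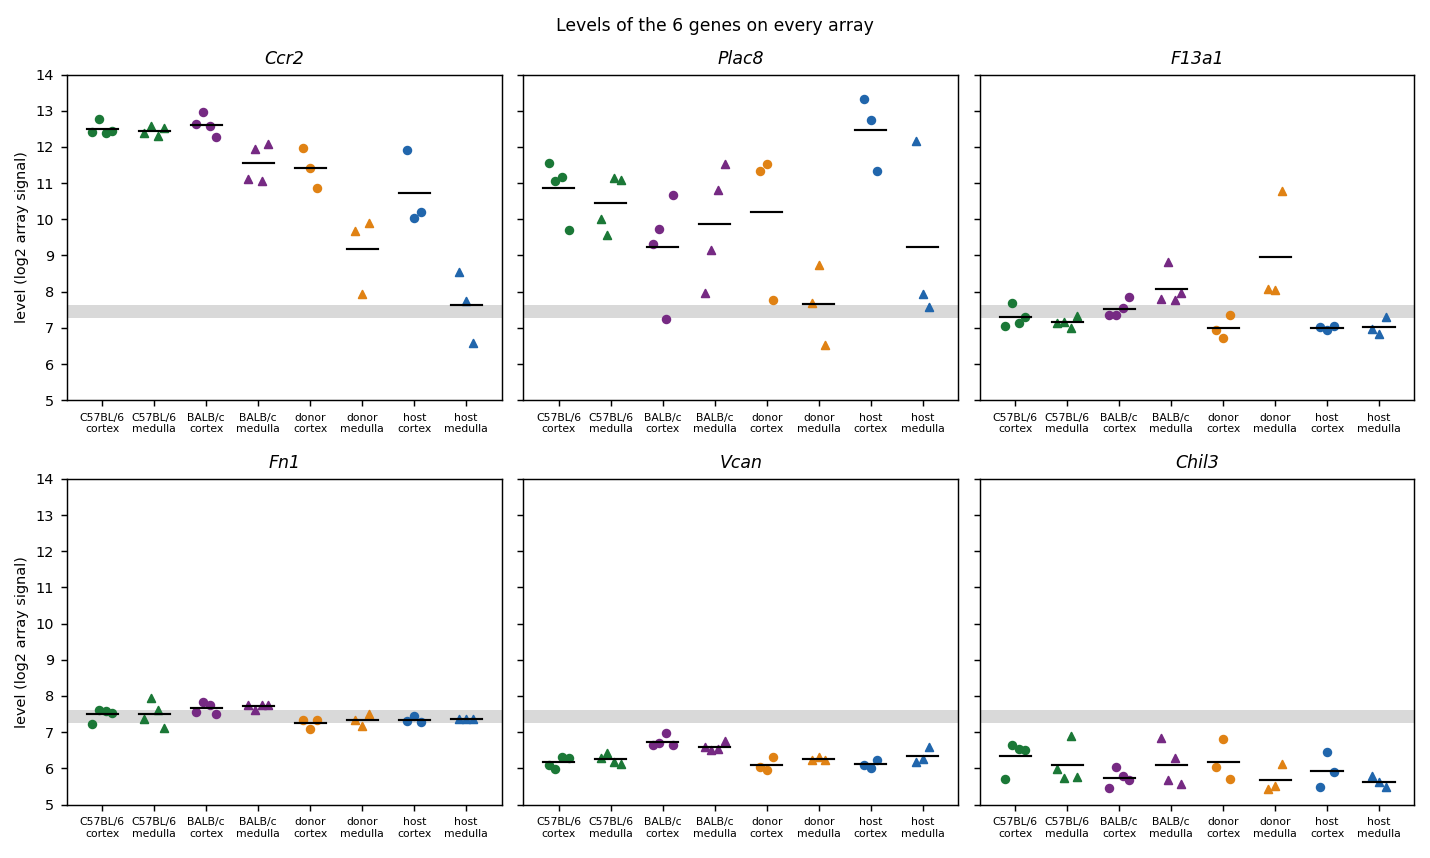
Level of each gene (vertical axis, log2 array signal) on every array, by group; circles are cortex, triangles medulla, horizontal bars group means, and the grey band spans the arrays' thresholds (7.26 to 7.62). Ccr2 is lowest in host medulla (mean 7.62), F13a1 has 1 array at 10.79 in donor medulla, and Vcan and Chil3 lie below the band on all 28 arrays.

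Across the 16 comparisons, Ccr2 passed in 6 and F13a1 in 2, and Plac8 and Fn1 passed in none. Host cells against C57BL/6 cells gave 1 of the 4 tested members in cortex, where 4.14% of all genes passed, and 1 in medulla, where 11.5% passed. Donor against BALB/c cells gave 0 in cortex, with 24.0% of all genes passing, and 1 in medulla, with 3.18%. Donor against host cells gave 0 in cortex (0.495% of all genes) and 1 in medulla (0.592%). Medulla against cortex gave 2 in donor cells (2.54%), 1 in host cells (4.29%), and 0 in C57BL/6 (0.153%) and in BALB/c cells (0.0697%). BALB/c against C57BL/6 gave 0 in cortex (9.91%) and in medulla (9.11%). Of the differences of differences, the medulla-cortex difference of host minus C57BL/6 cells gave 1 (0.899%) and that of donor minus BALB/c cells 0 (0.453%). Donor minus host cells, less the gap between the homeostatic strains, gave 0 in cortex (0.774%) and 0 in medulla (1.14%). Where limma called no member, unadjusted p-values under 0.05 numbered 2 for donor against BALB/c cortex (Ccr2, Fn1), 2 for the regional difference of donor minus BALB/c (Plac8, F13a1), 1 each for BALB/c medulla against cortex (Ccr2), BALB/c against C57BL/6 medulla (F13a1) and donor minus host beyond strain in medulla (Ccr2), and 0 in the other 4. Groups did not overlap for 2 of the 4 members in host against C57BL/6 cortex, where 14.9% of all genes had no overlap, and for 1 in medulla (24.3%). For donor against BALB/c cells these were 3 in cortex (29.9%) and 2 in medulla (15.3%), and for donor against host cells 0 in cortex (7.42%) and 1 in medulla (8.31%). Cortex and medulla did not overlap for 2 members in donor (15.9%), 1 in host (17.5%), 1 in BALB/c (2.40%) and 0 in C57BL/6 cells (4.21%), and the strains for 0 in cortex (22.4%) and 2 in medulla (23.5%). The 4 tested members passed a filter on low values, so these counts do not cover Vcan and Chil3.

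**Figure D2:**
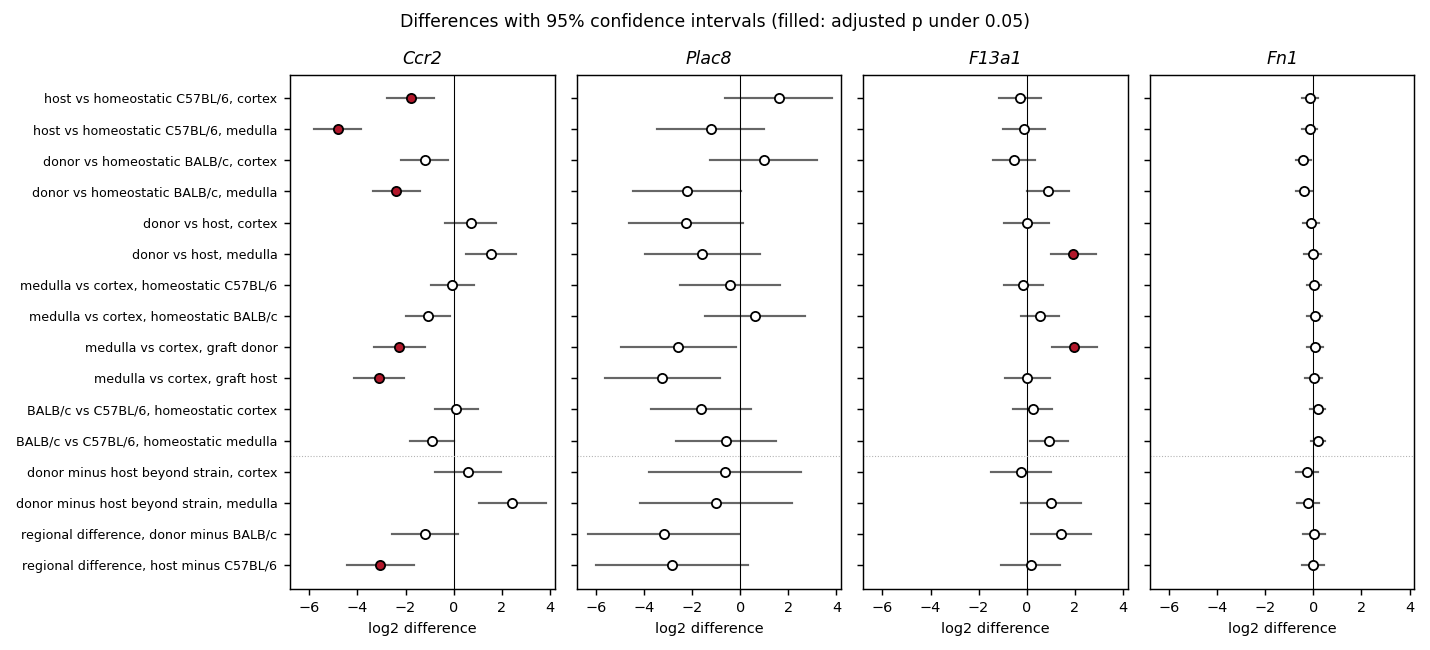
Log2 difference (horizontal axis) with its 95% confidence interval from limma for the 4 tested genes in 16 comparisons, the lower 4 being differences of differences; filled points passed at an adjusted p under 0.05. The 8 filled points belong to Ccr2 (6, all negative) and F13a1 (2, both positive), and the widest intervals are those of Plac8.

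Ccr2, the receptor itself, was high and even in healthy C57BL/6 kidneys, lower in the grafts, and lowest in the graft medulla. In C57BL/6 cells it read 12.40, 12.78, 12.37 and 12.45 in cortex and 12.40, 12.57, 12.31 and 12.52 in medulla. In BALB/c cells it read 12.64, 12.97, 12.56 and 12.28 in cortex and 11.12, 11.94, 11.06 and 12.08 in medulla. Every homeostatic array was above 11, and all 4 BALB/c medulla arrays lay below the BALB/c cortex arrays. Host cells read 11.91, 10.03 and 10.21 in cortex and 8.55, 7.74 and 6.58 in medulla. Donor cells read 11.98, 11.43 and 10.86 in cortex and 9.69, 7.94 and 9.89 in medulla. In both kinds of graft cells the 3 medulla arrays lay below the 3 cortex arrays, and neither graft medulla group overlapped its homeostatic counterpart. By group mean the order was BALB/c cortex (12.61), C57BL/6 cortex (12.50), C57BL/6 medulla (12.45), BALB/c medulla (11.55), donor cortex (11.42), host cortex (10.72), donor medulla (9.17) and host medulla (7.62). Ranges of neighbours in that order overlapped except between C57BL/6 medulla and BALB/c medulla, and between host cortex and donor medulla.

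Host cells had less Ccr2 than C57BL/6 cells of the same region. In medulla the difference was -4.82 ± 0.47 (limma adjusted p = 2.0e-07), 28.3-fold lower in array signal. The host medulla mean of 7.62 lay near the arrays' thresholds (7.26 to 7.62), and replicate 3 (6.58) was below its own. That fold is therefore set against dim signal. The difference passed under each of the 8 alternatives run for it and with each of the 7 arrays left out. In cortex it was -1.78 ± 0.47 (limma adjusted p = 0.030). That value missed the threshold without C57BL/6 cortex replicate 2, 3 or 4 or host cortex replicate 2 or 3 (adjusted p from 0.058 to 0.20), and when these groups alone were fitted (adjusted p = 0.12).

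Donor cells had less Ccr2 than BALB/c cells in medulla, by -2.38 ± 0.47 (limma adjusted p = 0.011), 5.20-fold lower in array signal. Without donor medulla replicate 2, the array at 7.94, the difference was -1.76 with an adjusted p of 0.10, and with these groups alone in the fit the adjusted p was 0.23. In cortex the donor value was -1.19 ± 0.47, which missed the threshold (limma adjusted p = 0.068), with a 95% interval from -2.17 to -0.21. Between the 2 origins the donor value exceeded the host value by 0.71 ± 0.50 in cortex (limma adjusted p = 1.00) and 1.55 ± 0.50 in medulla (limma adjusted p = 0.34), neither passing. The medulla difference passed without donor medulla replicate 2, at 2.16 (adjusted p = 0.032). With the strain difference between homeostatic cells subtracted, donor cells exceeded host cells in medulla by 2.45 ± 0.67 (limma adjusted p = 0.077). That value passed with mouse as a random block (adjusted p = 0.046), without donor medulla replicate 2 (3.06, adjusted p = 0.012) and without host medulla replicate 1 (2.91, adjusted p = 0.031). With each array's leukocyte-wide mean subtracted from all genes, the difference beyond strain was 0.74 ± 0.56 (limma adjusted p = 0.23). The median of all genes was -1.89 there. On that scale donor minus host in medulla was 0.39 ± 0.42 (limma adjusted p = 0.39), where the median of all genes was -1.17.

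The regional gap of Ccr2 was present within each graft. Medulla minus cortex within the same graft was -2.29, -3.49 and -0.97 in donor cells and -3.36, -2.29 and -3.63 in host cells. Within the same BALB/c mouse it was -1.53, -1.03, -1.51 and -0.20, and within the same C57BL/6 mouse it lay between -0.21 and 0.07. All 3 grafts had the same direction in both kinds of cells, and the C57BL/6 mice showed no such step. The group difference was -2.25 ± 0.50 in donor cells (limma adjusted p = 0.013) and -3.09 ± 0.50 in host cells (limma adjusted p = 4.3e-04), and -1.07 ± 0.44 in BALB/c cells (limma adjusted p = 0.63). When the pair of groups was fitted by itself with the graft as a block, the adjusted p was 0.28 in donor and 0.11 in host cells, and 0.19 and 0.16 without the block. The donor value also missed the threshold when donor cortex replicate 1 (0.088) or donor medulla replicate 2 (0.093) was left out. The difference between the host and the C57BL/6 step was -3.04 ± 0.67 (limma adjusted p = 0.025), with the adjusted p between 0.050 and 0.074 without C57BL/6 medulla replicate 2 or 4, host cortex replicate 1 or host medulla replicate 3. It was 0.052 after a second quantile normalization and 0.055 with these groups alone. The donor step differed from the BALB/c step by -1.19 ± 0.67 (limma adjusted p = 0.65), with a 95% interval from -2.57 to 0.20.

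**Figure D3:**
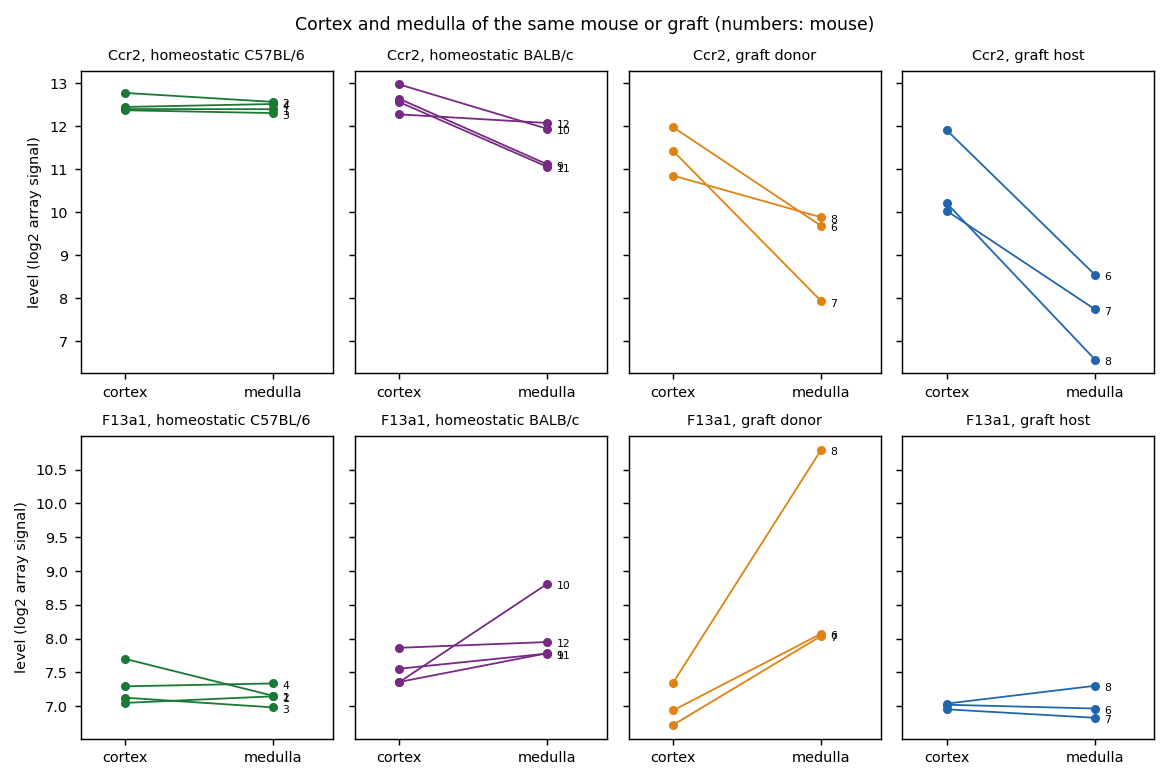
Ccr2 (top) and F13a1 (bottom) level (vertical axis, log2 array signal) in cortex and medulla of the same mouse or graft, joined by a line and marked with the mouse number of the labels. Ccr2 falls from cortex to medulla in all 3 grafts in donor and in host cells, while F13a1 rises in the 3 donor pairs by 1.14 to 3.45.

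The leukocyte-wide mean moved with Ccr2. Of its 21 genes, 18 were lower and 0 higher in host than in C57BL/6 medulla, while 12 of 12 tested epithelium-wide genes were higher. In host cortex limma called 0 of the 21, with 12 at an unadjusted p under 0.05. Pearson's r between Ccr2 and the leukocyte-wide mean was 0.93 over the 28 arrays, and -0.93 with the epithelium-wide mean, as a description of arrays that share 8 groups. Ccr2 fell further than that mean: Ccr2 minus the mean was 1.19 ± 0.15 (SD, n = 4) in C57BL/6 cortex, 0.96 ± 0.13 (SD, n = 4) in C57BL/6 medulla, 0.35 ± 0.56 (SD, n = 3) in host cortex and -1.02 ± 0.84 (SD, n = 3) in host medulla. With each array's leukocyte-wide mean subtracted from all genes, Ccr2 was lower in host than in C57BL/6 medulla by -1.98 ± 0.39 (limma adjusted p = 2.9e-05) and lower in donor than in BALB/c medulla by -1.24 ± 0.39 (limma adjusted p = 0.025). The medulla-cortex difference also passed on that scale in donor (-1.80 ± 0.42, limma adjusted p = 0.027) and host cells (-1.37 ± 0.42, limma adjusted p = 0.0047). The host cortex difference did not (-0.83 ± 0.39, limma adjusted p = 0.11), nor did the host-minus-C57BL/6 regional difference (-1.15 ± 0.56, limma adjusted p = 0.063). That subtraction moved the median of all genes from 0.07 to 2.91 for host against C57BL/6 medulla. On that scale the median was 1.03 for donor against BALB/c medulla. For medulla against cortex it was 0.56 in donor and 1.82 in host cells. The 3 tested genes with the pattern most like Ccr2 also fell further than the leukocyte-wide mean. Plbd1, Cd180 and Cyth4 went from 12.91, 11.92 and 11.59 in C57BL/6 medulla to 8.57, 8.26 and 8.22 in host medulla. The part of the epithelium-wide genes in the Ccr2 values was not tested.

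**Figure D4:**
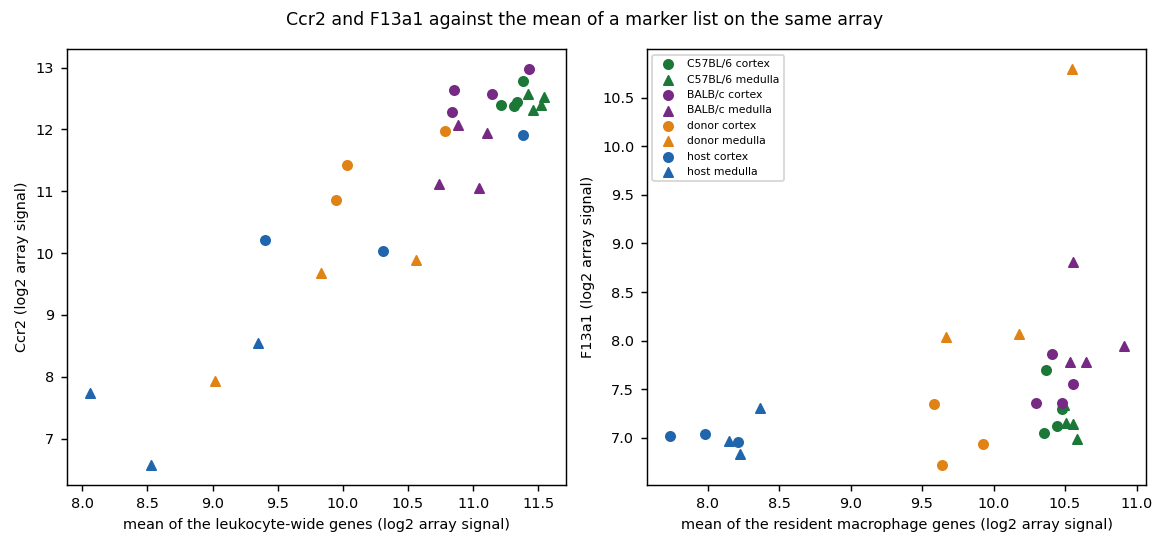
Left, Ccr2 level against the mean level of 21 leukocyte-wide genes; right, F13a1 level against the mean level of the resident macrophage genes, both axes in log2 array signal, 1 point per array. Averaged by group, Ccr2 and the leukocyte-wide mean are both lowest in graft medulla, while single arrays of the leukocyte-wide mean overlap between graft regions. The donor medulla array with F13a1 at 10.79 has a resident macrophage mean of 10.55.

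A window at a listed start of Ccr2 and of F13a1 is shown because these 2 members passed in opposite directions between graft regions of donor cells. Each window holds 250 bases before to 50 bases after a listed start, from RefSeq on GRCm38.p6, on the strand of the gene. That of Ccr2 is chr9:124101933-124102232 (plus strand), and the F13a1 window shown is chr13:37049164-37049463 (minus strand), 1 of 2 listed for this gene. RefSeq places the genes at 124101918-124109140 and 36867178-37050244, so both windows shown lie inside the annotated gene. Capitals mark a match to GAGGAAGT, a core bound by PU.1, the myeloid transcription factor encoded by Spi1.
Ccr2: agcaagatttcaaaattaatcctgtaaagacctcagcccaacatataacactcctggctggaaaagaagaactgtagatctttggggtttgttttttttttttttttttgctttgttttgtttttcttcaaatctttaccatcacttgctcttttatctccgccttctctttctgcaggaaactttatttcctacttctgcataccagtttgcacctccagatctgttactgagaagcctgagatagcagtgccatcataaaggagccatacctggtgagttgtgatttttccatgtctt
F13a1: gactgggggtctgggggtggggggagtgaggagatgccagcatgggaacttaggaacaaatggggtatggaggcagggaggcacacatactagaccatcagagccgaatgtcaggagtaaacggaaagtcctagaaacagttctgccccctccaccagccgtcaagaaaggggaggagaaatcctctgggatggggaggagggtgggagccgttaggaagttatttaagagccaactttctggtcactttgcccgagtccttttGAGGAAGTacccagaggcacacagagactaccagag
A set of 3 short motifs were searched on both strands: GAGGAAGT, TTGCNNAA (a C/EBP motif) and the core of the interferon-stimulated response element. They occur in 3.2%, 10.8% and 3.44% of the 32851 windows of the table. The F13a1 window shown holds GAGGAAGT at bases 265 to 272, after the start listed for that window. Neither the Ccr2 window nor the other F13a1 window, chr13:37050195-37050494, holds any of the 3, which says only that these letters are not in those windows.

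Among the ligands and growth factors, Ccl2 and Ccl12, which signal through CCR2, were lower in host than in C57BL/6 medulla, and Ccl12 in cortex too. Of 8 genes in this list 7 were tested, and in host against C57BL/6 medulla 1 was higher and 2 were lower, where 11.5% of all genes passed, with a median of 0.05 beside 0.07 over all genes. Ccl2 was 9.74 ± 0.10 (SD, n = 4) in C57BL/6 medulla, 9.69 ± 1.30 (SD, n = 4) in BALB/c medulla, 9.71 ± 0.75 (SD, n = 3) in donor medulla and 7.32 ± 0.31 (SD, n = 3) in host medulla. Its host-C57BL/6 difference there was -2.42 ± 0.51 (limma adjusted p = 0.0022), in cortex it was -1.31 ± 0.51 and did not pass (limma adjusted p = 0.20), and donor medulla exceeded host medulla by 2.40 ± 0.55 (limma adjusted p = 0.043). The host medulla mean of Ccl2 lay within the range of the arrays' thresholds (7.26 to 7.62). Ccl12 differed between host and C57BL/6 cells by -2.75 ± 0.78 in cortex (limma adjusted p = 0.047) and -3.13 ± 0.78 in medulla (limma adjusted p = 0.0086). The leukocyte-wide mean differed between these cells by -0.95 in cortex and -2.84 in medulla, where Ccl2 fell less than that mean. Il34, a ligand of the macrophage growth factor receptor, was higher in host than in C57BL/6 medulla, by 0.98 ± 0.24 (limma adjusted p = 0.0086). The epithelium-wide mean was also higher there, at 9.95 to 10.36 on host medulla arrays and 7.69 to 7.88 on C57BL/6 medulla arrays. The part of the epithelium-wide genes in the Il34 value was not tested. Ccl7, Ccl8, Csf1 and Cx3cl1 passed in none of the comparisons between groups of cells: their host-C57BL/6 differences in medulla were 0.05, -0.22, 0.05 and 0.28.

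Most of the other receptors and adhesion molecules of monocyte entry were lower in host medulla. Of 8 tested, 7 were lower and 0 higher in host than in C57BL/6 medulla, where 11.5% of all genes passed, with a median of -2.18 beside 0.07 over all genes. The leukocyte-wide mean differed by -2.84 in that comparison, so the median of these receptors fell less than that mean. Ccr1, a receptor of other chemokines, did not pass (-0.73 ± 0.39, limma adjusted p = 0.30). In host cortex 2 were lower, where 4.14% of all genes passed, with a median of -0.83 beside a leukocyte-wide mean difference of -0.95. In donor against BALB/c cells 2 were lower in cortex and 0 in medulla by limma (5 at an unadjusted p under 0.05 in medulla), with medians of -0.30 and -0.72 beside -0.13 and -0.11 over all genes. All genes passed at 24.0% in that cortex comparison and 3.18% in medulla, so the cortex count is near the background. Leukocyte-wide means differed by -0.81 and -1.14 between donor and BALB/c cells in cortex and medulla. Cx3cr1, the fractalkine receptor of non-classical monocytes and kidney mononuclear phagocytes, was 12.29 ± 0.15 (SD, n = 4) in C57BL/6 medulla, 11.26 ± 0.57 (SD, n = 3) in donor medulla and 8.53 ± 0.08 (SD, n = 3) in host medulla. Its host-C57BL/6 difference was -3.46 ± 0.29 in cortex and -3.76 ± 0.29 in medulla (limma adjusted p = 5.1e-08 and 9.5e-09). Itgam, the CD11b chain, differed by -1.71 ± 0.30 and -3.21 ± 0.30 (limma adjusted p = 0.0010 and 1.0e-07). Beyond the strain difference, donor cells exceeded host cells by 2.20 ± 0.42 in cortex and 3.29 ± 0.42 in medulla for Cx3cr1, and by 1.78 ± 0.42 and 4.04 ± 0.42 for Itgam (limma adjusted p of 0.013, 1.1e-04, 0.047 and 5.4e-06). Itgb2, the shared beta chain of the leukocyte integrins, and Selplg, a selectin ligand, were lower in host medulla by -2.30 ± 0.33 and -2.06 ± 0.39 (limma adjusted p = 4.8e-05 and 8.7e-04). Host and donor arrays did not overlap for Cx3cr1 in either region and overlapped for Ccr2 in both.

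**Figure D5:**
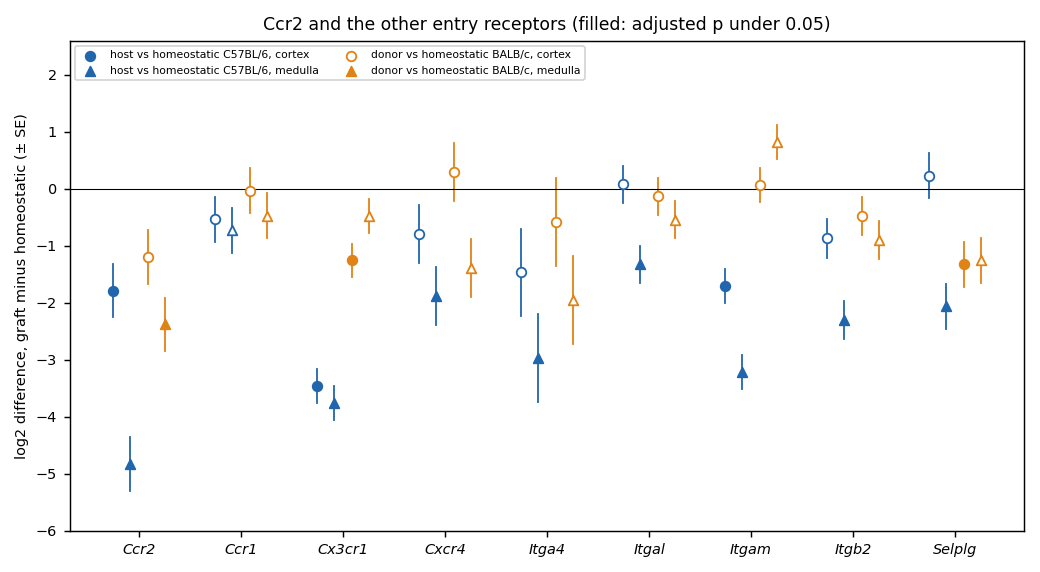
Log2 difference ± SE (vertical axis) of graft cells minus homeostatic cells of the same strain and region for Ccr2 and the 8 entry receptors, with host cells in blue, donor cells in orange, circles for cortex and triangles for medulla; filled symbols passed at an adjusted p under 0.05. Ccr2 in host medulla is the lowest point (-4.82), and Cx3cr1 is low in host cells of both regions.

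Plac8, a small protein of classical monocytes that plasmacytoid dendritic cells and natural killer cells also express, varied widely within groups and passed in no comparison. It read 11.55, 11.05, 11.16 and 9.69 in C57BL/6 cortex and 10.00, 9.57, 11.13 and 11.09 in C57BL/6 medulla. In BALB/c cells it read 9.31, 9.73, 7.25 and 10.67 in BALB/c cortex and 7.97, 9.15, 10.81 and 11.53 in BALB/c medulla. The strains overlapped in both regions, and BALB/c arrays spread over several log2 units. In the grafts it read 13.31, 12.74 and 11.34 in host cortex and 12.16, 7.94 and 7.58 in host medulla. In donor cells it read 11.33, 11.53 and 7.77 in cortex and 7.68, 8.74 and 6.52 in medulla. The 2 highest values of the series were host cortex arrays, and host medulla replicate 1 stood above the other host medulla arrays. Medulla minus cortex within a graft was negative in all 3 grafts for both origins, at -3.65, -2.79 and -1.26 in donor cells and -1.16, -4.80 and -3.76 in host cells. The group difference was -3.24 ± 1.15 in host cells (limma adjusted p = 0.15) and -2.56 ± 1.15 in donor cells (limma adjusted p = 0.32). Without host medulla replicate 1 the host difference was -4.70 and passed (limma adjusted p = 0.015). Host against C57BL/6 cortex was 1.60 ± 1.08 (limma adjusted p = 0.61), with a 95% interval from -0.63 to 3.83. The means of the plasmacytoid dendritic cell list on the host cortex arrays were 10.78, 9.73 and 8.27, and those of the natural killer cell list 8.87, 8.74 and 7.20. The 3 host cortex arrays had the same rank order for Plac8 and for 8 of the 19 lists, among them the leukocyte-wide (11.38, 10.30 and 9.40), T cell (8.95, 8.10 and 7.46) and conventional dendritic cell lists (10.53, 9.22 and 8.73). On the C57BL/6 arrays the plasmacytoid and natural killer cell means lay between 8.18 and 8.65 and between 6.53 and 7.24. Their part in the Plac8 values was not tested.

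F13a1, which encodes the factor XIII A chain of monocytes, macrophages and platelets, was raised in donor medulla. Donor cells read 6.94, 6.72 and 7.35 in cortex and 8.07, 8.04 and 10.79 in medulla. Host cells read 7.02, 6.95 and 7.04 in cortex and 6.97, 6.83 and 7.30 in medulla. All 3 donor medulla arrays lay above every donor cortex and host array, and replicate 3 stood far above the other donor medulla arrays. C57BL/6 cells read 7.05, 7.70, 7.13 and 7.29 in cortex and 7.15, 7.15, 6.98 and 7.34 in medulla. BALB/c cells read 7.36, 7.36, 7.55 and 7.86 in cortex and 7.78, 8.81, 7.78 and 7.95 in medulla. BALB/c medulla lay above C57BL/6 medulla without overlap and overlapped donor medulla. The 4 BALB/c medulla arrays and the 3 donor medulla arrays make up 7 of the 9 arrays on which F13a1 was above the threshold.

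Medulla exceeded cortex in donor cells by 1.97 ± 0.45 (limma adjusted p = 0.015), 3.91-fold in array signal, and the steps within the grafts were 1.14, 1.32 and 3.45. Without donor medulla replicate 3 the difference was 1.05 and still passed (limma adjusted p = 0.034); without donor cortex replicate 1 or 2 the adjusted p was 0.060 or 0.068, it was 0.34 with the graft as a block and only these groups fitted, and 0.45 without the block. Donor medulla exceeded host medulla by 1.94 ± 0.45 (limma adjusted p = 0.049), at 1.02 without donor medulla replicate 3 (adjusted p = 0.14). That comparison also missed the threshold without any 1 of the 3 host medulla arrays (0.067 to 0.15), with the graft as a block (0.68) or not (0.92) in a fit of the pair by itself, without the filter (0.060) and after a second quantile normalization (0.055). With the leukocyte-wide mean subtracted from all genes, which differed by 1.16 between these groups, it was 0.78 ± 0.50 (limma adjusted p = 0.16). Against BALB/c medulla the donor value was 0.89 ± 0.42 (limma adjusted p = 0.22), and -0.02 without donor medulla replicate 3. With the leukocyte-wide mean subtracted it was 2.03 ± 0.47 and passed (limma adjusted p = 0.0049), where the median of all genes was 1.03. The strain difference was 0.93 ± 0.39 in medulla (limma adjusted p = 0.11), and the donor-host difference beyond strain there was 1.01 ± 0.59 (limma adjusted p = 0.37). On donor medulla replicates 1, 2 and 3 the mean of the 11 resident macrophage genes was 10.18, 9.67 and 10.55, and that of the 6 platelet and megakaryocyte genes found was 7.94, 7.43 and 8.09. Both means were highest on replicate 3, as were 15 of the 19 list means, the leukocyte-wide mean (9.83, 9.02 and 10.56) included. The part of any of them in its F13a1 value was not tested. Resident macrophage means lay between 9.59 and 9.93 in donor cortex and between 7.73 and 8.37 in host cells.

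Fn1 and Vcan, the matrix members, stayed dim. Fn1, fibronectin, lay between 7.09 and 7.96 on all arrays, with group means from 7.26 in donor cortex to 7.71 in BALB/c medulla. It passed in no comparison, and its widest differences were donor minus BALB/c, -0.41 ± 0.15 in cortex (limma adjusted p = 0.057) and -0.38 ± 0.15 in medulla (limma adjusted p = 0.15). Groups did not overlap in either, and the cortex difference passed with a robust variance trend (adjusted p = 0.045) and without the filter (adjusted p = 0.037). It passed in 2 of the 7 alternatives run for it, in which it lay between -0.41 and 0.40. Vcan, versican, lay between 5.97 and 6.97, below the threshold of every array. BALB/c homeostatic arrays held 6.52 to 6.97 and all exceeded the C57BL/6 arrays, at 5.99 to 6.43. The lower quartile of all probesets was also higher on BALB/c arrays, 7.01 to 7.17 against 6.82 to 6.91 on C57BL/6 arrays. Over the 28 arrays Vcan followed that quartile with r = 0.88 and Fn1 with r = 0.53. In a fit without the filter, Vcan was higher in BALB/c than in C57BL/6 cells by 0.58 in cortex and 0.34 in medulla (limma adjusted p = 0.0020 and 0.041), and lower in donor than in BALB/c cortex by -0.64 (limma adjusted p = 8.9e-04). The part of the arrays' low end in these Vcan values and in the Fn1 differences was not tested.

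Of the matrix partners of fibronectin and versican, 7 were tested. In host against C57BL/6 medulla 1 was higher and 2 were lower, with a median of -0.44 beside 0.07 over all genes, of which 11.5% passed. The leukocyte-wide mean differed by -2.84 there. Tgfbi, a secreted matrix protein of mononuclear phagocytes that binds integrins, was lower in host cells by -2.87 ± 0.41 in cortex and -2.66 ± 0.41 in medulla (limma adjusted p = 1.1e-04 and 9.5e-05). Cd44, the hyaluronan receptor, was lower in host medulla by -1.80 ± 0.41 (limma adjusted p = 0.0042), and Sdc4, a syndecan that binds fibronectin, was higher by 0.79 ± 0.26 (limma adjusted p = 0.049). The part of the epithelium-wide genes, whose mean was also higher in host medulla, in the Sdc4 value was not tested. Itga5, the alpha chain of the classical fibronectin receptor, was lower in donor than in BALB/c cells in cortex and medulla, by -0.58 ± 0.21 and -0.76 ± 0.21 (limma adjusted p = 0.049 in both).

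Chil3, which encodes the chitinase-like protein Ym1, lay between 5.44 and 6.89, below the threshold of every array. Its group means ran from 5.64 in host medulla to 6.35 in C57BL/6 cortex, and the groups overlapped in all 12 comparisons of groups. In a fit without the filter its host-C57BL/6 differences were -0.41 in cortex and -0.45 in medulla (limma adjusted p = 0.85 and 0.59).

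Other genes of classical monocytes did not move as 1 block. Of 14 tested, 2 were higher and 7 lower in host than in C57BL/6 medulla, with a median of -1.15 beside 0.07 over all genes, of which 11.5% passed. The leukocyte-wide mean differed by -2.84 between these groups. In host cortex 2 were lower (4.14% of all genes passed). In donor against BALB/c cells, where 24.0% of all genes passed in cortex and 3.18% in medulla, 1 was higher and 0 lower in each region by limma (3 in cortex and 4 in medulla at an unadjusted p under 0.05). Lyz2, lysozyme, was 12.57 ± 0.22 (SD, n = 4) in C57BL/6 medulla, 13.07 ± 0.69 (SD, n = 3) in donor medulla and 9.64 ± 0.96 (SD, n = 3) in host medulla. Host cells had less Lyz2 than C57BL/6 cells, by -3.04 ± 0.35 in cortex and -2.93 ± 0.35 in medulla (limma adjusted p = 4.3e-06 and 3.7e-06). Unlike Ccr2, Lyz2 was higher in donor medulla than in donor cortex, by 1.64 ± 0.37 (limma adjusted p = 0.014). Cd14, the lipopolysaccharide co-receptor, differed between host and C57BL/6 cells by -2.95 ± 0.36 in cortex and -2.01 ± 0.36 in medulla (limma adjusted p = 1.4e-05 and 5.4e-04). Ms4a4c, a membrane protein of myeloid cells, was lower in host medulla by -3.77 ± 0.72 (limma adjusted p = 8.7e-04). Thbs1, thrombospondin, was higher in both graft medulla groups, by 1.87 ± 0.36 in host cells (limma adjusted p = 8.7e-04) and 1.45 ± 0.36 in donor cells (limma adjusted p = 0.031). Mgst1, a microsomal glutathione transferase that kidney epithelium also expresses, was higher in donor than in BALB/c cortex by 4.45 ± 0.75 (limma adjusted p = 5.0e-04). In that comparison 4 of 12 epithelium-wide and 7 of 9 proximal tubule genes were also higher, where 24.0% of all genes passed; their part in the Mgst1 value was not tested.

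Some genes of non-classical monocytes and some myeloid transcription factors were lower in host medulla, where 11.5% of all genes passed and the median of all genes was 0.07. The leukocyte-wide mean differed by -2.84 between host and C57BL/6 medulla. Of 11 non-classical genes tested, 4 were lower and 0 higher than in C57BL/6 medulla, with a median of -0.98. These include Cx3cr1, which this list shares with the entry receptors, and Adgre4, an adhesion receptor of monocytes, at -2.51 ± 0.44 (limma adjusted p = 4.1e-04). Of 8 transcription factors tested, 4 were lower and 0 higher, with a median of -1.34. Zeb2, a repressor active across mononuclear phagocytes, was lower by -2.83 ± 0.35, Runx1 by -2.03 ± 0.28, Spi1 by -2.31 ± 0.39 and Irf5 by -1.64 ± 0.31 (limma adjusted p of 7.2e-06, 2.2e-05, 2.5e-04 and 8.5e-04). Spi1 and Zeb2 were also lower in donor than in BALB/c medulla, by -1.65 ± 0.39 and -1.35 ± 0.35 (limma adjusted p = 0.027 and 0.039). On no group's arrays did more than 2 of 10 neutrophil genes lie above the threshold in every array. That rule does not cover single arrays, and Camp, Csf3r, S100a8 and S100a9 passed the filter and were tested.

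Members did not follow one another closely. Pearson's r between pairs of members over the 28 arrays ran from -0.52 (Plac8 and F13a1) to 0.63 (Vcan and Fn1), and Ccr2 and F13a1 had -0.09. The tested genes with the pattern most like Ccr2 were Plbd1 (r = 0.94), Cd180 (0.93) and Cyth4 (0.93), the last a gene of the leukocyte-wide list. Closest to Plac8 were Jak2 (0.78), Ccl5 (0.72) and Kynu (0.72). Closest to F13a1 were Mroh2a (0.81), Twf2 (0.80) and Siglec1 (0.79). Closest to Fn1 were Btnl2 (0.79), Arntl (0.78) and Fcmr (0.76), closest to Vcan were Adgrd1 (0.93), Wfdc13 (0.93) and Tmem217 (0.91), and closest to Chil3 were Zfp277 (0.64), Wdr3 (0.61) and Lysmd1 (0.61). These values describe likeness over 28 arrays that share 8 groups and their normalization.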

How the data were processed

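Total RNA of sorted renal dendritic cells was amplified and hybridised to 28 Affymetrix arrays. Per the submitters' processing notes, the authors used RMA and the oligo package to obtain the deposited log2 signal of each probeset. No version was found. RMA corrects background, quantile normalizes and summarises the probes of a probeset, and the values were used as deposited. Precision depends on how many arrays a group holds.

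The table has 22549 probesets, of which 20646 list 1 symbol and were used; 551 list several symbols and 1352 none. For each of 19272 symbols, 19258 of them matched in the mouse gene table, the probeset with the highest mean over all arrays was kept. The 14346 genes above the 40th percentile of their array (taken over the probesets with 1 symbol) in at least 3 arrays were tested. The test was limma 3.58.1 (R 4.3.3) on a model with 1 mean per group over 28 arrays (20 residual degrees of freedom), 2-sided, in 12 comparisons of groups and 4 differences of differences. P-values were adjusted by Benjamini and Hochberg over all genes tested. The script was tested on simulated data.

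Mouse numbers in the labels tie arrays to 11 mice or grafts, so arrays with 1 number share an animal. Their residuals correlated on average at 0.155 between the donor regions, 0.106 between the host regions, 0.220 (cortex of both origins), 0.171 (medulla of both origins), -0.003 (C57BL/6 regions) and -0.006 (BALB/c regions). The model has no mouse term; mouse as a block was an alternative, with a consensus correlation of 0.134. Nothing in the labels says whether the donor kidneys of different grafts came from separate donors, and p-values measure the spread between these samples.

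The members and gene lists were chosen with earlier results of these data known. All members are named, with up to 4 passing genes of each list and comparison by smallest adjusted p. Every tested attractant is named too, as are the 3 tested genes most correlated with each member. Alternatives were the mouse block (random or fixed), no filter or a strict filter on dim genes (requiring a mean over the median probeset), quantile normalization done again, subtraction of the leukocyte-wide mean, a robust variance trend, the compared groups alone, the probeset with the largest variance, and each array left out. Promoter windows are those of RefSeq on GRCm38.p6; none is listed for Fn1.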

Additional observations from a re-analysis of the deposited data

Results flagged for a closer look

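Of 24 groups of 4 arrays checked for a member, 3 held an array whose gap to its neighbour took up an unusual share of the range, and chance gives about 5% of groups. F13a1 read 8.81 in BALB/c medulla replicate 2, above the other 3 arrays of its group. Fn1 read 7.61 on the same array, below the others, within a group that spans little. Chil3 read 5.70 in C57BL/6 cortex replicate 1, below the other 3 arrays and, like all Chil3 values, below the array's threshold.

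The medulla-cortex difference of Ccr2 differed between host and C57BL/6 cells by -3.04 (limma interaction contrast, adjusted p = 0.025). Medulla was lower than cortex in 3 of 3 grafts for host cells, by 2.29 or more, while the 4 C57BL/6 mice lay between -0.21 and 0.07.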

How the results depend on the processing

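The number of tested members passing kept within 1.5 times of its main value in 110 of 136 counts under other settings. Main counts were 0, 1 or 2 of 4 members, and a 0 that stayed 0 is among these, so the share says little about stability. With each array's leukocyte-wide mean subtracted, the count became 0 for host against C57BL/6 cortex and for donor against host medulla. It became 3 for host against C57BL/6 medulla and for host medulla against cortex (Ccr2, F13a1 and Fn1 in both). For donor against BALB/c medulla it was 2 (Ccr2 and F13a1). Donor minus host beyond strain in medulla gave 1 (Fn1, -1.94, where the median of all genes was -1.89). The host-minus-C57BL/6 regional difference gave 2 (F13a1 and Fn1), where that median was 1.97. Ccr2 did not pass in either of these differences of differences. Under that subtraction the host-C57BL/6 medulla difference reversed to 2.72 for F13a1 and 2.69 for Fn1, and the host-minus-C57BL/6 regional difference of Fn1 reversed to 1.88, where the median of all genes moved to 2.91 and 1.97. In fits of the compared groups alone, with fewer arrays to estimate the spread, the count was 0 for host against C57BL/6 cortex, donor against BALB/c medulla, donor against host medulla, donor and host medulla against cortex, and the host-minus-C57BL/6 regional difference. Mouse as a fixed replicate block gave 0 for donor against host medulla and for donor and host medulla against cortex; as a random block it gave 1 for donor minus host beyond strain in medulla. The block changed no other count. Without the filter the count was 2 for donor against BALB/c cortex (Fn1 and Vcan), 0 for donor against host medulla, and 1 for BALB/c against C57BL/6 cortex and for medulla (Vcan). The strict filter left F13a1 and Fn1 out, giving 0 for donor against host medulla and 1 for donor medulla against cortex. A second quantile normalization gave 0 for donor against host medulla and for the host-minus-C57BL/6 regional difference, and a robust variance trend gave 1 for donor against BALB/c cortex. Except where stated, the cause was not tested. With each array left out, the count ranged from 0 to 1 for host against C57BL/6 cortex, donor against BALB/c medulla, donor minus host beyond strain in medulla and the host-minus-C57BL/6 regional difference, from 0 to 2 for donor against host medulla and donor medulla against cortex, and from 1 to 2 for host medulla against cortex. The dim signal of Vcan, Chil3, Fn1 and most F13a1 arrays limits what could be measured for these genes.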
